A study of Mus musculus with 15 samples.

Results

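The ERK feedback genes examined here were 10 genes that RAS and ERK signalling is known to induce and whose products mostly restrain it. They were the phosphatases Dusp4, Dusp5 and Dusp6, the Sprouty genes Spry1, Spry2 and Spry4, the Sprouty-related genes Spred1 and Spred2, and the ETS transcription factors Etv4 and Etv5. The platform annotation gave 28 probe sets to exactly 1 of these genes, of 34945 probe sets with 1 gene. Each of the 10 genes, of 18193 genes in all, was read from the brightest of its probe sets, judged by mean log2 signal. All 10 passed the filter on dim genes, which asked for a signal above the array's median on at least 3 of 15 arrays. Spry4 and Etv4 lay above it on 11 arrays and the other 8 genes on all 15.

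The cells came from mammary tumours of MMTV-PyMT mice on the FVB/N background, in which the mouse mammary tumour virus promoter drives the polyoma middle T oncogene in mammary epithelium, and were grown as mammospheres, floating spheres kept without serum and with EGF, FGF and B27. After 10 days the spheres received a compound for 2 days, and RNA was hybridised to Affymetrix Mouse430_2 arrays. The 5 groups of 3 samples received DAPT, U0126, TAE226, PP2 or the DMSO vehicle. DAPT inhibits the γ-secretase step of Notch activation, U0126 inhibits MEK, TAE226 inhibits FAK and PP2 inhibits Src family kinases. All groups, vehicle included, carried the same oncogene and the same growth factors. The sample labels call the 3 samples of each group biological replicates. The sources used here give no doses and do not say whether replicates were separate mice or cultures. The p-values therefore cover a spread between samples that may not be one between mice.

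Growth factor receptors pass their signal through RAS and RAF to MEK and then to ERK, which phosphorylates transcription factors in the nucleus. Dual-specificity phosphatases remove the activating phosphates from ERK, DUSP6 in the cytoplasm and DUSP4 and DUSP5 in the nucleus, while Sprouty and Spred proteins act further up and hold back RAS and RAF. ETV4 and ETV5 belong to the PEA3 subfamily of ETS factors, which carry FGF and EGF signals into transcription.

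The 5′ flanks of 4 genes are shown because their calls differed. Dusp6 and Spry2 did not differ past the threshold between U0126 and PP2, and Spry1 and Spred1 were called lower under PP2 and not under U0126. For Spred1 this holds for the probe set that stands for the gene, and another was called lower under U0126, as given below. Each line holds the 250 bases before the annotated start, from RefSeq on GRCm38.p6, 5′ to 3′ on the gene's strand. Capitals mark GGAA or its reverse complement TTCC, the core that ETS factors bind.
Dusp6, chr10:99262981-99263230, plus strand: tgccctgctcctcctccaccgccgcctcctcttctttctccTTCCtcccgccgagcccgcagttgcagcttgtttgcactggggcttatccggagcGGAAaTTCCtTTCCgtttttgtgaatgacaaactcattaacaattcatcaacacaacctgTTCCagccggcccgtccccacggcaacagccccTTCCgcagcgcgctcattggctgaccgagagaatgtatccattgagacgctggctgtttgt
Spry2, chr14:105896820-105897069, minus strand: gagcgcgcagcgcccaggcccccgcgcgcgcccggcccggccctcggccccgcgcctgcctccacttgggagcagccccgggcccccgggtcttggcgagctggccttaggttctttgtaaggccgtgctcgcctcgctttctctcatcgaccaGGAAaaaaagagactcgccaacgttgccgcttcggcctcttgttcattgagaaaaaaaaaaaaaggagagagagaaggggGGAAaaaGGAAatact
Spry1, chr3:37639697-37639946, plus strand: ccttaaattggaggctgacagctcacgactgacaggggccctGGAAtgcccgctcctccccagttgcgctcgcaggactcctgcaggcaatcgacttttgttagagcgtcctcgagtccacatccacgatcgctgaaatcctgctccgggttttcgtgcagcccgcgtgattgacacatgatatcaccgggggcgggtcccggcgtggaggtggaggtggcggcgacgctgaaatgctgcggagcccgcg
Spred1, chr2:117120821-117121070, plus strand: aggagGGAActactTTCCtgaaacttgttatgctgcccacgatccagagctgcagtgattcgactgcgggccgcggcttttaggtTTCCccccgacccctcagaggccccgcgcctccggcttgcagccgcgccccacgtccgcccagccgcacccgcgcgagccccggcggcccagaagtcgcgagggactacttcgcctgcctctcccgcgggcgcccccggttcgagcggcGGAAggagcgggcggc

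The table of promoters held 8 entries for 7 of the 10 genes, and Dusp4, Spry4 and Etv4 were not matched. The core GGAA, searched on both strands, occurred in 7 of these 8 windows, and in 93.4% of 32851 promoter windows of the same length. Dusp6 held 6 copies, Spred1 4, Spry2 3 and Spry1 1. Of the genes not shown, Spred2 held 7 and Dusp5 3, and Etv5 held 0 at its annotated start and 4 at another. A relation between the number of copies and the fold changes was not tested. The longer form CCGGAA, which contains the core, occurred in 0 of the 8 windows and in 12.0% of all windows, and the AP-1 motif TGANTCA in 0 of 8 and in 6.75%. The CRE core TGACG occurred in 2 of 8, those of Dusp5 and Spred2, and in 17.8% of all windows. These matches describe letters in a window, and binding was not measured.

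Signals are MAS5 intensities on a linear scale, and fold changes are differences of mean log2 signal from a limma fit over all 15 arrays. Adjusted p-values are limma's, two-sided, adjusted by Benjamini and Hochberg over 11412 genes, with 0.05 as the threshold. Array medians ran from 65.7 to 90.8, and a gene is called dim in a group where all 3 arrays lay at or below their medians. The log2 array medians were higher than vehicle's by 0.13 under DAPT, 0.08 under U0126, 0.25 under TAE226 and 0.22 under PP2, and centring the arrays on their medians lowers every fold change over vehicle by that amount. All 5 epithelial markers (Epcam, Cdh1, Krt8, Krt18 and Cldn7) lay above the array median on every array. Of 6 immune, 5 fibroblast and 4 endothelial markers 3 each lay above it on no array, and none lay above it on all arrays. In RNA from whole cultures, fewer cells of a kind and less RNA per cell cannot be told apart.

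PP2 lowered the whole set. All 10 genes fell against vehicle, with no overlap between the arrays of the groups for any of them, where 26.7% of all genes tested were called lower and groups did not overlap in 59% of genes. The median log2 fold change of the 10 was −1.40, or −0.96 with the 2 genes that PP2 left dim held at their bound, beside 0.02 over all genes. Under U0126 7 genes fell and 0 rose, where 21.4% of all genes were called lower (median −0.94, beside 0.00 over all genes). Under TAE226 4 fell and 0 rose (15.9% of all genes called lower), and under DAPT 4 fell and 0 rose (17.5%). Dusp4, Dusp6 and Etv5 were called lower under all 4 inhibitors, Spry2 and Spred2 under 3, Dusp5 and Spry4 under U0126 and PP2, and Spry1, Spred1 and Etv4 under PP2 alone of the 4. These comparisons share the vehicle arrays. As given below, some of these calls ended in alternatives: Etv5 and Spry2 under DAPT, Spred2 under U0126, TAE226 and PP2, Spry4 under U0126 and Dusp5 under PP2. Another probe set each of Spred1 and Etv4 was called lower under U0126, that of Etv4 having passed the filter through the vehicle group. By limma's F-test all 10 genes differed among the 5 groups, as did 73.2% of all genes.

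**Figure D1:**
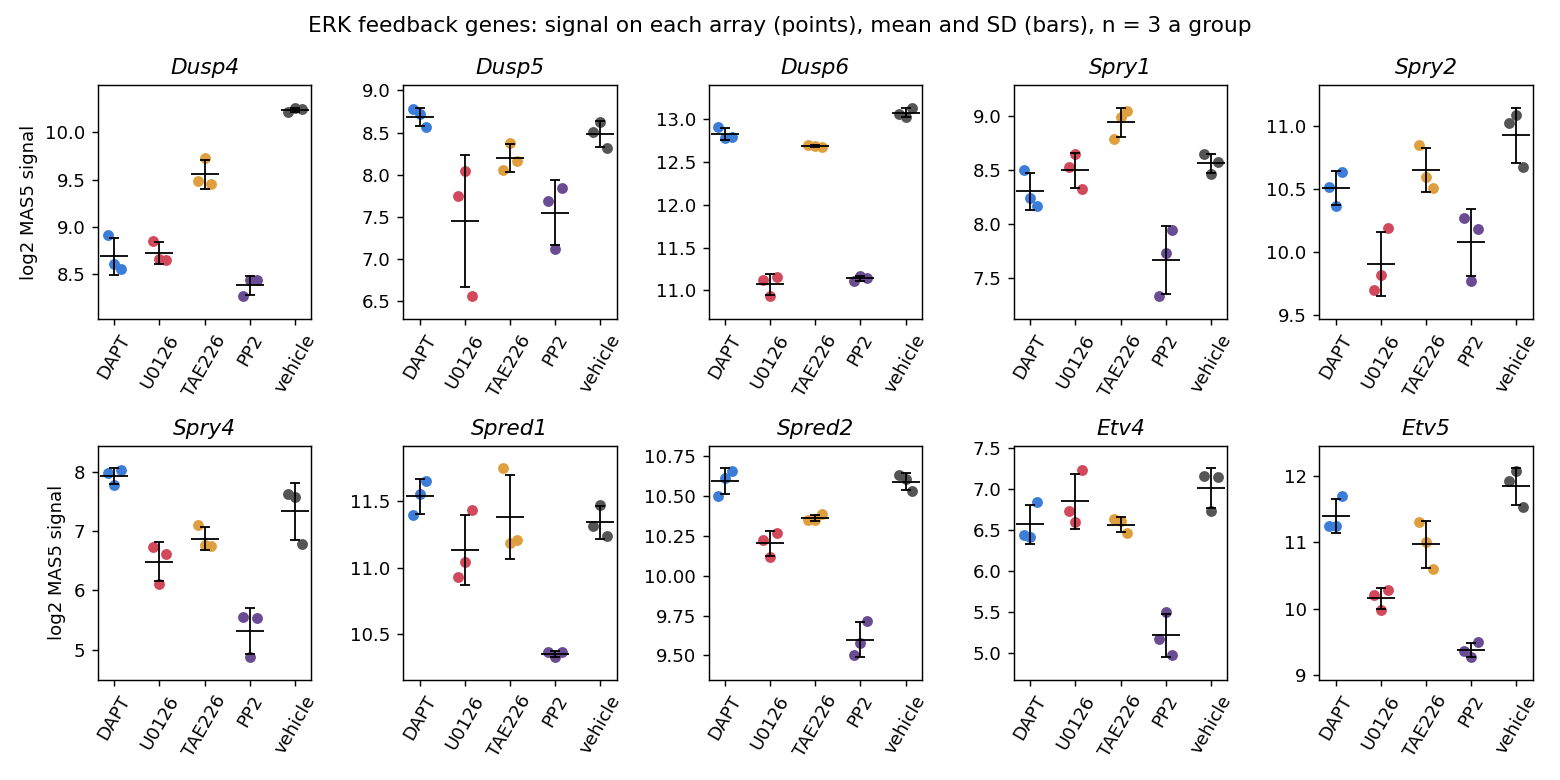
Log2 MAS5 signal of the 10 genes (1 panel each, each with its own vertical range) on the 3 arrays of each group, with the mean and SD as bars. PP2 lies below vehicle without overlap in every panel, while U0126 lies with PP2 for Dusp6 and with vehicle for Spry1.

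Some measures of the cultures moved with these groups. The actin 3′ to 5′ signal ratio, a measure of RNA shortening, was 1.57 ± 0.04 under PP2, 1.28 ± 0.07 under U0126, 1.33 ± 0.07 under TAE226, 1.35 ± 0.07 under DAPT and 1.42 ± 0.06 in vehicle (SD, n = 3 each). The same ratio for Gapdh was 0.827 ± 0.016 under PP2, 0.791 ± 0.017 under U0126, 0.793 ± 0.037 under TAE226, 0.801 ± 0.055 under DAPT and 0.777 ± 0.0026 in vehicle. The summed signal of 4 basal markers (Krt5, Krt14, Trp63 and Acta2) was 8164 to 8921 under PP2, 15673 to 17618 under U0126, 10226 to 10982 under TAE226, 14999 to 15298 under DAPT and 12028 to 13489 in vehicle. Over vehicle 0 of the 4 rose and 3 fell under PP2, 1 rose and 2 fell under U0126, 1 rose and 3 fell under TAE226, and 2 rose and 0 fell under DAPT. The marker that rose under U0126 was Krt14 (0.58, adjusted p = 3.01e-06), the brightest of the 4, while Krt5 (−0.22, adjusted p = 0.0488) and Trp63 (−0.66, adjusted p = 6.23e-07) fell. The Krt5 call ended in most alternatives, among them the fit of only the groups compared (adjusted p = 0.0552) and the fit without each U0126 array in turn (adjusted p = 0.0555, adjusted p = 0.137 and adjusted p = 0.0935), and the Trp63 call ended with the mean of all its probe sets (−0.51, adjusted p = 0.0628). The sum of the 5 epithelial markers was 64214 to 66454 under PP2, 59589 to 67165 under U0126, 64752 to 72668 under TAE226, 56595 to 57808 under DAPT and 62128 to 65585 in vehicle. The part of RNA quality and of basal cells in the results was not tested. The numbers in the sample labels run in blocks by group, so any effect of that order and the treatment cannot be told apart.

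Among the phosphatases, Dusp6 (probe set 1415834_at) gave signals of 2231, 1951 and 2285 under U0126, 2209.7, 2303 and 2256 under PP2, 7646, 6999 and 7091 under DAPT, 6608, 6562 and 6509 under TAE226, and 8524, 8327 and 8968 in vehicle. The arrays fell into a high and a low level, with U0126 and PP2 overlapping at the low one, and DAPT and TAE226 lay just below vehicle without overlapping it. The log2 fold change over vehicle was −2.00 under U0126 (SE 0.059, adjusted p = 6.75e-14), −1.93 under PP2 (adjusted p = 1.36e-13), −0.39 under TAE226 (adjusted p = 7.61e-05) and −0.25 under DAPT (adjusted p = 0.00334). Centred on array medians, the value was −0.65 under TAE226 and −0.38 under DAPT. In the order of the means, vehicle, DAPT, TAE226, PP2 and U0126, neither DAPT and TAE226 (adjusted p = 0.0955) nor PP2 and U0126 (adjusted p = 0.336) differed past the threshold. DAPT and TAE226 did with the arrays centred on their medians (adjusted p = 0.0426) and without U0126 replicate 2 (adjusted p = 0.0426).

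Of the 10 genes, Dusp4 (1428834_at) had the lowest fold change under DAPT. Its signals were 484, 389.5 and 377 under DAPT, 463, 406 and 402 under U0126, 714, 848 and 701 under TAE226, 309, 348 and 348 under PP2, and 1187, 1221 and 1211 in vehicle. Every treated array lay below every vehicle array, DAPT and U0126 overlapped, and TAE226 stood between these and vehicle. It changed over vehicle by −1.54 on the log2 scale under DAPT (SE 0.10, adjusted p = 4.25e-09), −1.51 under U0126 (adjusted p = 3.12e-09), −0.68 under TAE226 (adjusted p = 7.16e-05) and −1.85 under PP2 (adjusted p = 1.44e-10). DAPT and U0126 differed by −0.030 on the log2 scale (95% interval −0.24 to 0.19, adjusted p = 0.843), and Dusp4 was higher under DAPT than under PP2 (0.31, adjusted p = 0.0233). That last call ended without DAPT replicate 1 (0.20, adjusted p = 0.137) or PP2 replicate 1 (0.25, adjusted p = 0.101), and with only those groups fitted (adjusted p = 0.0572).

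Dusp5 (1437199_at) gave 215, 264 and 94.1 under U0126, 206, 139 and 230.0 under PP2, 439, 421 and 379 under DAPT, 266, 333 and 286 under TAE226, and 362, 393 and 319 in vehicle. U0126 and PP2 lay below vehicle without overlap, DAPT and TAE226 overlapped with it, and U0126 replicate 3 lay far below the rest of its group. Against vehicle, the log2 fold change was −1.03 under U0126 (SE 0.27, adjusted p = 0.00576), or −0.58 without that replicate (adjusted p = 0.0187), and −0.93 under PP2 (adjusted p = 0.00863). The PP2 call ended without PP2 replicate 2 (−0.71, adjusted p = 0.0518). Values under DAPT (0.21, adjusted p = 0.598) and TAE226 (−0.28, adjusted p = 0.473) did not pass. No neighbours in the order of its means, DAPT, vehicle, TAE226, PP2 and U0126, differed past the threshold, the closest being TAE226 and PP2 (0.65, adjusted p = 0.0650).

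Of the Sprouty genes, Spry2 (1436584_at), like Spry4 below, fell under both U0126 and PP2. Its signals were 833, 905 and 1171 under U0126, 1238, 876 and 1165 under PP2, 1469.9, 1321 and 1589 under DAPT, 1845, 1553 and 1461 under TAE226, and 2081, 2176 and 1642 in vehicle. All U0126, PP2 and DAPT arrays lay below the lowest vehicle array, and TAE226 overlapped with vehicle. Its log2 fold change was −1.02 under U0126 (SE 0.14, adjusted p = 2.35e-05), −0.85 under PP2 (adjusted p = 9.77e-05), −0.42 under DAPT (adjusted p = 0.0315) and −0.28 under TAE226 (adjusted p = 0.164). The DAPT call ended without vehicle replicate 1 (−0.38, adjusted p = 0.0997) or 2 (−0.34, adjusted p = 0.121), without DAPT replicate 1 (−0.43, adjusted p = 0.0635) or 2 (−0.35, adjusted p = 0.118), and without the intensity trend (adjusted p = 0.0669). The TAE226 value passed with arrays centred on their medians (−0.53, adjusted p = 0.0183). The gene's other probe set fell under U0126 (−0.77, adjusted p = 0.000673) and PP2 (−0.66, adjusted p = 0.00141), with p adjusted over 24669 probe sets.

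Spry1 (1415874_at) fell under PP2 and did not pass under U0126. Its signals were 161, 213 and 247 under PP2, 369.5, 401 and 321 under U0126, 442, 509 and 529 under TAE226, 362, 303 and 289 under DAPT, and 401, 355 and 382 in vehicle. PP2 lay below all other groups, U0126 and DAPT overlapped with vehicle, and TAE226 lay above it. The change over vehicle was −0.89 under PP2 (SE 0.14, adjusted p = 5.03e-05), −0.063 under U0126 (adjusted p = 0.765), −0.26 under DAPT (adjusted p = 0.174) and 0.38 under TAE226 (adjusted p = 0.0524). The TAE226 value passed with only those groups fitted (adjusted p = 0.0179) and in some fits that left out 1 array.

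Spry4 (1445669_at) gave 47.1, 29.3 and 46.2 under PP2, where it was dim, 107, 69.1 and 97.9 under U0126, 138, 109 and 108 under TAE226, 252, 219 and 260.5 under DAPT, and 199, 192 and 110.2 in vehicle. PP2 was the lowest group and DAPT the highest, with U0126 and PP2 below every vehicle array. It was at least 1.90-fold lower under PP2 (adjusted p = 4.86e-06), and changed by −0.85 on the log2 scale under U0126 (SE 0.26, adjusted p = 0.0140). The U0126 call ended without vehicle replicate 1 (−0.70, adjusted p = 0.0719) or 2 (−0.72, adjusted p = 0.0633) or U0126 replicate 2 (−0.66, adjusted p = 0.0736), and with the mean array median added to all signals the value was −0.51 (adjusted p = 0.00675). DAPT did not pass against vehicle (0.59, adjusted p = 0.0866) but did with that pseudocount (0.41, adjusted p = 0.0303). TAE226 did not pass (−0.46, adjusted p = 0.195), but did with arrays centred on their medians (−0.71, adjusted p = 0.0386) and without vehicle replicate 3 (−0.73, adjusted p = 0.0388). Spry4 was higher under DAPT than under TAE226 (1.05, adjusted p = 0.00645) and U0126 (1.44, adjusted p = 0.000236). Its other 3 probe sets did not pass the filter on dim signals.

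The Spred genes had like changes under PP2. Spred1 (1423160_at) gave 1319, 1284 and 1319 under PP2, 1951, 2113 and 2763 under U0126, 2690.4, 3014 and 3227 under DAPT, 3438, 2330.3 and 2367 under TAE226, and 2542, 2843 and 2412 in vehicle. Its PP2 arrays lay below all others, and the other treated groups overlapped with vehicle. The fitted change was −0.99 under PP2 (SE 0.13, adjusted p = 9.96e-06), −0.20 under U0126 (adjusted p = 0.248), 0.20 under DAPT (adjusted p = 0.288) and 0.041 under TAE226 (adjusted p = 0.849). The U0126 value passed without U0126 replicate 3 (−0.35, adjusted p = 0.0433), and with the mean over all probe sets DAPT passed as higher (0.39, adjusted p = 0.0122) and PP2 gave −0.32 (adjusted p = 0.0228). Of the gene's 6 tested probe sets 5 were called lower under PP2 and 1 under U0126, 1423161_s_at (−0.37, adjusted p = 5.84e-05).

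Spred2 (1434403_at) gave 725, 764 and 841 under PP2, 1197, 1107 and 1233 under U0126, 1301, 1304 and 1335 under TAE226, 1448, 1565 and 1614 under DAPT, and 1586, 1553 and 1477 in vehicle. PP2 was lowest, U0126 and TAE226 lay between, and DAPT overlapped with vehicle. Fold changes on the log2 scale were −0.99 under PP2 (SE 0.066, adjusted p = 1.70e-09), −0.39 under U0126 (adjusted p = 0.000165), −0.23 under TAE226 (adjusted p = 0.0143) and 0.0027 under DAPT (adjusted p = 0.981). The TAE226 call ended without vehicle replicate 1 (−0.21, adjusted p = 0.0569), and its value was −0.48 with arrays centred on their medians. The falls under U0126 and TAE226 rest on 1 probe set: 1436892_at gave −0.061 under U0126 (adjusted p = 0.740) and 0.22 under TAE226 (adjusted p = 0.164), though −0.70 under PP2 (adjusted p = 0.000102). The mean over all the gene's probe sets passed neither under U0126 (−0.088, adjusted p = 0.829) nor under PP2 (−0.27, adjusted p = 0.410).

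The ETS factor Etv5 (1428142_at) showed the greatest fall under PP2 among the 10 genes, apart from those dim there. Its signals were 661, 619.7 and 721 under PP2, 1179, 1011 and 1240.3 under U0126, 2532, 2043 and 1546 under TAE226, 2426, 2427 and 3308 under DAPT, and 3866, 4281 and 2969.5 in vehicle. PP2, U0126 and TAE226 lay below vehicle in that order without overlap among the 4, while DAPT overlapped with both TAE226 and vehicle. It changed by −2.46 on the log2 scale under PP2 (SE 0.16, adjusted p = 1.56e-09), −1.69 under U0126 (adjusted p = 3.08e-07), −0.87 under TAE226 (adjusted p = 0.000581) and −0.44 under DAPT (adjusted p = 0.0434). The DAPT call ended without vehicle replicate 1 (−0.41, adjusted p = 0.117) or 2 (−0.33, adjusted p = 0.173), DAPT replicate 1 (−0.37, adjusted p = 0.143) or 2 (−0.37, adjusted p = 0.146), TAE226 replicate 2 (adjusted p = 0.0527) or PP2 replicate 1 (adjusted p = 0.0530). It also ended with quantile normalization (adjusted p = 0.0583), without the filter (adjusted p = 0.0631) and without the intensity trend (adjusted p = 0.0877). Its probe set 1450082_s_at gave −2.11 under PP2 (adjusted p = 1.49e-08), −1.75 under U0126 (adjusted p = 2.35e-07), −0.92 under TAE226 (adjusted p = 0.000353) and −0.54 under DAPT (adjusted p = 0.0154). The remaining probe set, 1420998_at, gave −0.56 under PP2 (adjusted p = 0.0354), −0.89 under U0126 (adjusted p = 0.00360), −0.41 under TAE226 (adjusted p = 0.157) and −0.055 under DAPT (adjusted p = 0.875).

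Etv4 (1443381_at) lay near the array median, with 35.8, 45.2 and 31.4 under PP2, where it was dim, 106, 96.5 and 150.0 under U0126, 87.1, 85.0 and 115 under DAPT, 99.0, 97.5 and 88.1 under TAE226, and 142, 107 and 142 in vehicle. Its PP2 arrays lay below all others, while U0126 and DAPT overlapped with vehicle. It was at least 1.52-fold lower under PP2 (adjusted p = 6.71e-06), and its log2 fold change was −0.16 under U0126 (adjusted p = 0.625), −0.45 under DAPT (adjusted p = 0.160) and −0.45 under TAE226 (adjusted p = 0.169). The TAE226 value passed with arrays centred on their medians (−0.70, adjusted p = 0.0244) or quantile normalized (adjusted p = 0.0248). Its other probe set, 1423232_at, disagreed for U0126, with 16.9, 27.3 and 46.0 under U0126 and 85.7, 121 and 166 in vehicle, at least 1.55-fold lower under U0126 (adjusted p = 0.00389). That probe set was above the median on 4 of 15 arrays and passed the filter through the vehicle group. The mean of both probe sets passed under U0126 (−1.14, adjusted p = 0.0134). That mean takes in 1423232_at with its dim values and its passage through the vehicle group, so it is not separate support.

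**Figure D2:**
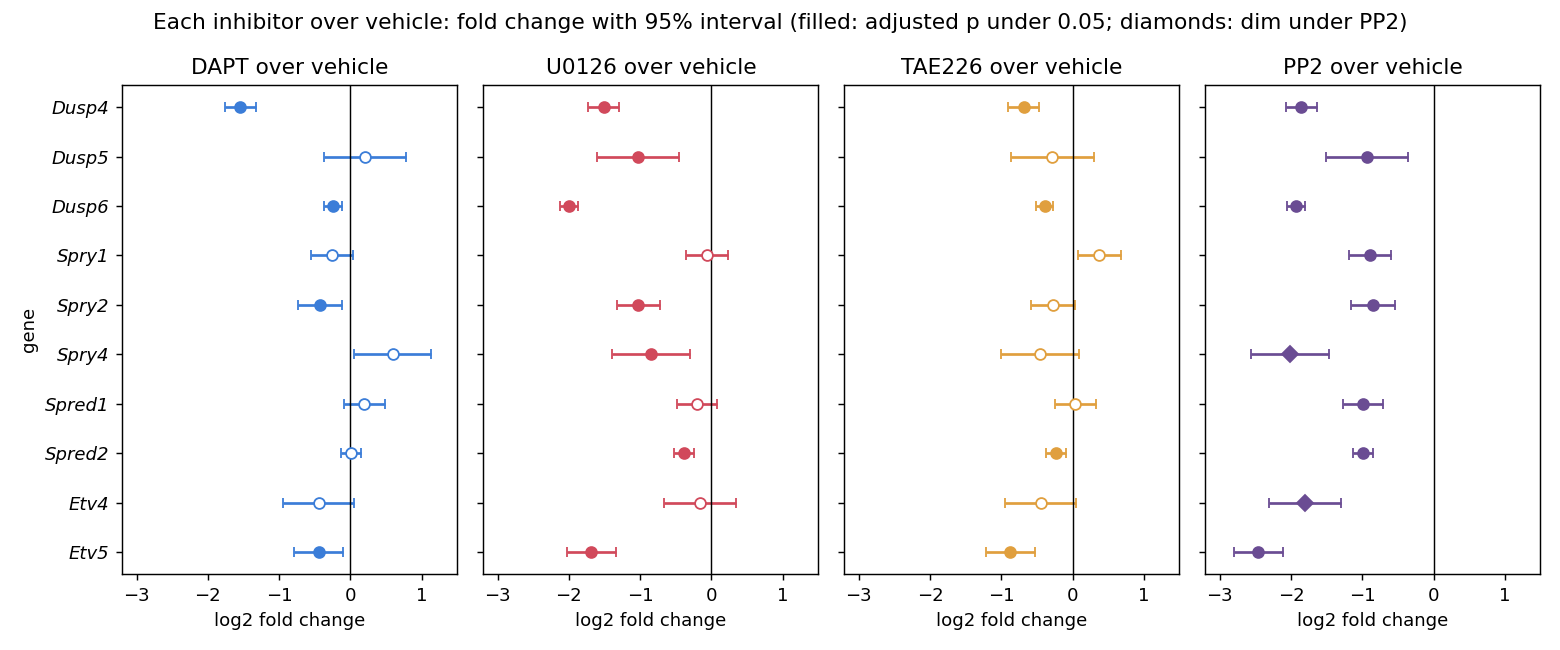
Log2 fold change of each gene over vehicle with its 95% interval, 1 panel per inhibitor. Filled symbols passed the threshold (adjusted p under 0.05) and diamonds mark genes that were dim under PP2. All 10 are filled and below 0 under PP2, against 7 under U0126 and 4 each under DAPT and TAE226.

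**Figure D3:**
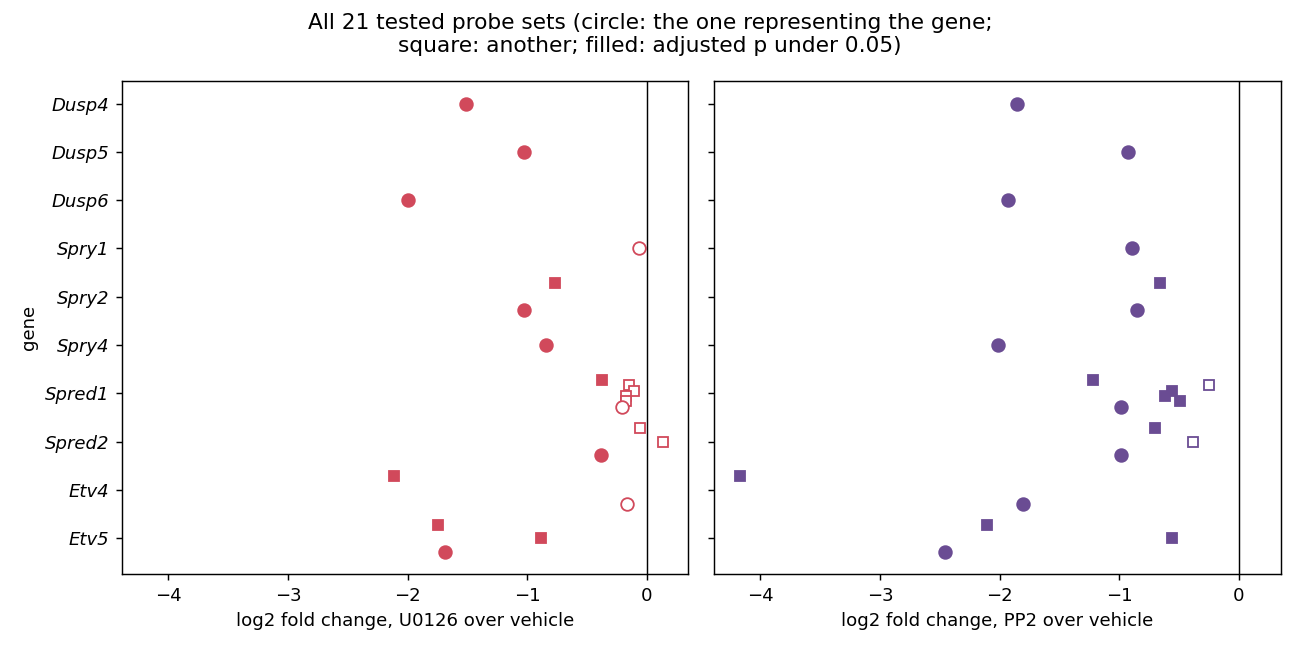
Log2 fold change over vehicle of the 21 tested probe sets of the 10 genes, under U0126 on the left and PP2 on the right. Circles are the probe sets that stand for the genes and squares the others. Under PP2 all 21 lie below 0, and under U0126 20 do, in both panels with the Etv4 probe set 1423232_at, which passed the filter through the vehicle group.

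Over all probe sets of these genes, 19 of the 21 tested were called lower under PP2, where 48.9% of 24669 probe sets were called in either direction, and 12 under U0126 (33.3%). Both counts include the Etv4 probe set 1423232_at, which passed the filter through the vehicle group and had to be lower elsewhere. Under TAE226 6 were called lower and 1 higher (28.6%), and under DAPT 5 lower and 2 higher (29.5%). The probe sets called higher belong to Spred1: 1423162_s_at under TAE226 (0.31, adjusted p = 0.0435) and DAPT (0.37, adjusted p = 0.0190), and 1460116_s_at under DAPT (0.49, adjusted p = 0.0259). Probe sets of 1 gene share its transcripts and are not independent.

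The direct comparison of U0126 with PP2, which sets a MEK inhibitor beside an inhibitor of Src family kinases, called part of the set. Of the 10 genes 7 were higher under U0126 than under PP2 and 0 lower, where 27.8% of all genes were called higher (median 0.69, or 0.39 with Spry4 and Etv4 at their bound, beside −0.02 over all genes). Dusp6 differed by −0.069 (95% interval −0.19 to 0.055, adjusted p = 0.336), Spry2 by −0.17 (−0.48 to 0.13, adjusted p = 0.332) and Dusp5 by −0.10 (−0.68 to 0.47, adjusted p = 0.772). The interval is narrow for Dusp6, and wide for Dusp5, where it takes in the value called for Dusp4 (0.34). The genes called higher under U0126 included Spry1 (0.83, adjusted p = 9.52e-05), Spred1 (0.78, adjusted p = 0.000101), Spred2 (0.60, adjusted p = 6.82e-07) and Dusp4 (0.34, adjusted p = 0.00932). Spry4 was at least 1.05-fold higher (adjusted p = 0.000981) and Etv4 at least 1.36-fold higher (adjusted p = 1.67e-05).

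Etv5 was also higher under U0126 than under PP2 (0.77, adjusted p = 0.000662), but only by the probe set that stands for the gene. Its other probe sets, 1450082_s_at (0.36, adjusted p = 0.0684) and 1420998_at (−0.32, adjusted p = 0.218), did not pass, nor did the mean of all of them (0.27, adjusted p = 0.0807). The same mean, which takes in dim probe sets, also ended the calls of Spred1 (0.11, adjusted p = 0.434) and Spred2 (0.18, adjusted p = 0.589), whereas the mean of the probe sets that passed the filter kept Spred1 (0.49, adjusted p = 0.000217) and Spred2 (0.59, adjusted p = 2.17e-05). With the mean of all probe sets Spry4 fell below the filter and was not tested. Of the 21 probe sets tested 12 were called higher under U0126 and 0 lower, one of them 1423232_at, dim in both groups, where 50% of all probe sets were called in either direction.

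**Figure D4:**
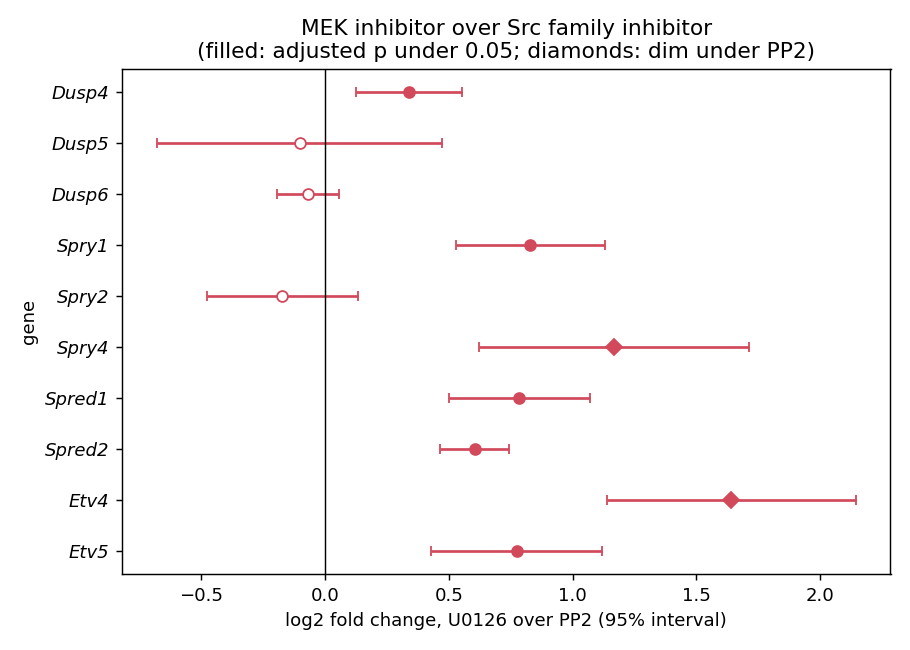
Log2 fold change of each gene, U0126 over PP2, with its 95% interval. Filled symbols passed the threshold and diamonds mark genes dim under PP2. Dusp5, Dusp6 and Spry2 are open and span 0, and the other 7 lie above 0.

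TAE226 left most of the set higher than PP2 did. Between TAE226 and PP2, 9 genes were higher under TAE226 and 0 lower (23.2% of all genes called higher), with Etv5 at 1.59 (adjusted p = 5.59e-07) and Dusp6 at 1.54 (adjusted p = 2.49e-12). The gene not called, Dusp5, passed without U0126 replicate 2 (adjusted p = 0.0377) or 3 (adjusted p = 0.00416) or PP2 replicate 3 (adjusted p = 0.0477). Of the 9, Spred2 (0.76, adjusted p = 6.94e-08) did not pass with the mean of all its probe sets (0.39, adjusted p = 0.247). Between U0126 and TAE226, 6 genes were lower under U0126 and 0 higher (19.5% of all genes called lower), with Dusp6 at −1.61 (adjusted p = 2.69e-12), Dusp4 at −0.83 (adjusted p = 7.71e-06), Etv5 at −0.81 (adjusted p = 0.000886) and Spry2 at −0.75 (adjusted p = 0.000653). Of these 6, Dusp5 (−0.75, adjusted p = 0.0393) did not pass without U0126 replicate 3 (−0.30, adjusted p = 0.218) or without TAE226 replicate 1 (adjusted p = 0.0542), 2 (adjusted p = 0.119) or 3 (adjusted p = 0.0733). Spry1 (−0.44, adjusted p = 0.0214) did not pass without U0126 replicate 3 (adjusted p = 0.0911), without TAE226 replicate 2 (adjusted p = 0.0636) or 3 (adjusted p = 0.0785), or with arrays centred on their medians (−0.27, adjusted p = 0.196).

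All 10 genes were higher under DAPT, whose target lies in the Notch pathway, than under PP2 (21.6% of all genes called higher). The values ran from 0.31 for Dusp4 to 2.01 for Etv5 among genes not dim under PP2, and Spry4 was at least 2.86-fold higher (adjusted p = 4.42e-07). Spry2 (0.43, adjusted p = 0.0262) did not pass without DAPT replicate 1 (adjusted p = 0.0627) or 3 (adjusted p = 0.0966) or PP2 replicate 2 (0.28, adjusted p = 0.152). The call of Spred2 (0.99, adjusted p = 3.24e-09) ended with the mean of all its probe sets (0.50, adjusted p = 0.143), and that of Dusp4 ended in the alternatives given above. Against U0126, 7 genes were higher under DAPT and 0 lower (23.2%), among them Dusp6 (1.75, adjusted p = 5.77e-13) and Dusp5 (1.24, adjusted p = 0.00141), with Dusp5 at 0.79 without U0126 replicate 3 (adjusted p = 0.00243). Of these 7, Spred1 (0.40, adjusted p = 0.0230) did not pass without DAPT replicate 2 (adjusted p = 0.0592) or 3 (adjusted p = 0.0921). Nor did Spred1 without U0126 replicate 1 (adjusted p = 0.115) or 2 (adjusted p = 0.0818), or with arrays centred on their medians (adjusted p = 0.102). Spred2 did not pass with the mean of all its probe sets (0.32, adjusted p = 0.343) or of those that passed the filter (0.19, adjusted p = 0.0786). Against TAE226, Spry4 and Spred2 were higher under DAPT, and Dusp4 (−0.86, adjusted p = 7.70e-06) and Spry1 (−0.64, adjusted p = 0.00324) lower, where 22.6% of all genes were called in either direction. Spred2 (0.23, adjusted p = 0.0174) did not pass without DAPT replicate 2 (adjusted p = 0.0580) or 3 (adjusted p = 0.0755) or TAE226 replicate 2 (adjusted p = 0.0537). Nor did it with the mean of all its probe sets (0.11, adjusted p = 0.830) or of those that passed the filter (0.044, adjusted p = 0.768).

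Other genes of the pathway were mixed. Of all genes tested, 26.1% rose and 26.7% fell under PP2, 19.5% rose and 21.4% fell under U0126, 15.2% rose and 15.9% fell under TAE226, and 17.1% rose and 17.5% fell under DAPT. Of 15 tested genes of the relay between receptors and ERK, under PP2 6 rose and 2 fell, under U0126 4 rose and 4 fell, and under TAE226 and DAPT 2 rose and 1 fell each. Gab1, an adaptor that recruits SHP2 to receptors, rose under U0126 (0.88, adjusted p = 3.32e-09) and PP2 (0.98, adjusted p = 5.35e-10). Map2k1, which encodes MEK1, fell under U0126 (−0.36, adjusted p = 0.000114), PP2 (−0.67, adjusted p = 5.82e-08), TAE226 (−0.49, adjusted p = 7.96e-06) and DAPT (−0.42, adjusted p = 3.61e-05). The other MEK gene, Map2k2, had mean log2 signals of 10.49 under U0126, 10.89 under PP2, 10.48 under TAE226, 10.59 under DAPT and 10.51 in vehicle. Of 10 other genes that ERK induces, under PP2 9 fell and 1 rose (median −1.11), under U0126 3 fell and 4 rose (median −0.03), and under TAE226 and DAPT 4 fell and 1 rose each. The zinc finger factor Egr1 changed by −3.11 under U0126 and −1.37 under PP2 (U0126 over PP2 −1.74, adjusted p = 5.79e-11), and Phlda1, a pleckstrin homology domain gene, by −1.32 and −0.16 in the same order (U0126 over PP2 −1.16, adjusted p = 3.53e-12). Fos, a subunit of AP-1, fell less under U0126 (−1.21) than under PP2 (−2.00), with U0126 over PP2 at 0.79, adjusted p = 1.57e-07. Egr1, Phlda1 and Fos were the 3 that fell under U0126. Mean log2 signal was higher under U0126 than in vehicle for Epha4 (8.27 against 7.44), Plaur (8.93 against 8.50) and Ier3 (14.07 against 13.69). The same held for Myc (11.60 against 11.37) and Ccnd1 (13.90 against 13.77). Epha2 (9.54 against 9.72) and Fosl1 (5.77 against 7.30) were lower and not called.

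Of 7 tested inhibitors of receptor or RAS signalling outside the set, under PP2 4 fell and 1 rose, under U0126 2 fell and 2 rose, under TAE226 1 fell and 2 rose, and under DAPT 1 fell and 3 rose. Errfi1, whose product MIG6 blocks the EGF receptor, fell under U0126 (−0.61, adjusted p = 1.23e-06) and PP2 (−0.79, adjusted p = 3.10e-08) and rose under DAPT (0.40, adjusted p = 0.000158), a call that ended with arrays centred on their medians (0.27, adjusted p = 0.0873). Lrig1, another brake on ERBB receptors, fell under U0126 (−1.04, adjusted p = 5.83e-09), PP2 (−0.24, adjusted p = 0.0104), TAE226 (−0.32, adjusted p = 0.00305) and DAPT (−0.23, adjusted p = 0.0219). Lrig1's calls under PP2 (−0.15, adjusted p = 0.235), TAE226 (−0.20, adjusted p = 0.139) and DAPT (−0.26, adjusted p = 0.0519) ended with the mean of its probe sets, and also without vehicle replicate 2 for PP2 (adjusted p = 0.0630) and DAPT (adjusted p = 0.109) and without DAPT replicate 1 (adjusted p = 0.0830) or 2 (adjusted p = 0.0506) for DAPT. Of 5 other dual-specificity phosphatases, 2 rose under each inhibitor, and 1 fell under DAPT, U0126 and PP2 each and 0 under TAE226. Dusp1, an immediate early MAP kinase phosphatase, rose under U0126 (0.52, adjusted p = 0.000435). Of 12 other ETS factors 5 rose and 4 fell under PP2, 2 rose and 5 fell under U0126, 3 rose and 3 fell under TAE226, and 5 rose and 1 fell under DAPT. Ets1 rose under U0126 (0.89, adjusted p = 2.13e-05) and TAE226 (0.84, adjusted p = 6.20e-05) and fell under PP2 (−1.17, adjusted p = 5.66e-07), and Elf5, the alveolar ETS factor, fell under U0126 (−0.65, adjusted p = 2.30e-05) and TAE226 (−0.55, adjusted p = 0.000187) and rose under PP2 (0.48, adjusted p = 0.000287) and DAPT (0.28, adjusted p = 0.0250). With arrays centred on their medians Elf5 did not pass under PP2 (0.26, adjusted p = 0.0501) or DAPT (0.15, adjusted p = 0.340), and under DAPT it also did not without vehicle replicate 1 (adjusted p = 0.0560) or 2 (adjusted p = 0.0836) or DAPT replicate 1 (adjusted p = 0.0827) or 2 (adjusted p = 0.0719). The values of Lrig1 and Elf5 under PP2 and DAPT, and those of the single basal markers, were chosen after they had been seen. Outside the rule for names given below are the mean signals of Map2k2, Epha4, Plaur, Ier3, Myc, Ccnd1, Epha2 and Fosl1. Also outside it are Map2k1 under U0126, Phlda1 under PP2, and Egr1, Phlda1 and Fos in U0126 over PP2. These last values were not refitted under the alternatives. Of 8 receptors 6 rose and 0 fell under PP2, 5 rose and 0 fell under DAPT, 3 rose and 0 fell under TAE226, and 3 rose and 2 fell under U0126. Met, the HGF receptor, rose under PP2 (0.87, adjusted p = 6.04e-09) and DAPT (0.80, adjusted p = 4.90e-08).

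The genes whose 5 group means followed Dusp6 most closely were B4galnt2, Slc16a6 and Tnfrsf18, with root mean square differences of 0.20, 0.24 and 0.26 on the log2 scale after each gene was centred on its own mean, where the median over all other genes tested was 0.89. B4galnt2 is a glycosyltransferase, Slc16a6 a transporter of the monocarboxylate family and Tnfrsf18 a receptor of the TNF family. For Spry4, whose PP2 mean is a dim value, these were Scrg1 (0.12), Ankrd22 (0.20) and Jade2 (0.22), and for Etv5 they were Il20rb (0.14), Fos (0.17) and Mt2 (0.27). Within the set, Dusp6 and Etv5 were each other's nearest (0.31), as were Spred1 and Spred2 (0.11) and Dusp5 and Spry2 (0.26). All these values are descriptions over the same 15 arrays.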

How the data were processed

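RNA of 15 mammosphere samples, 3 in each of 5 groups taken from the treatment labels, was measured on 1 Affymetrix Mouse430_2 array each. The deposited values are signal intensities made with Affymetrix Expression Console and MAS5, per the submitters' processing notes. Read from the values, each array was scaled to a mean of 500 with 2% trimmed at each end. No pair of arrays shared more than 2 identical values.

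The table held 45101 probe sets, 64 of them controls. The platform annotation gave 1 gene to 34945, several to 932 and none listed to 9160, and 34741 were matched by Entrez ID. A probe set ending in _x_at stood for a gene only where it had no other. Log2 signals, with no pseudocount, were fitted in limma 3.58.1 (R 4.3.3) with a coefficient per group and an intensity trend, which left 10 residual degrees of freedom; a fit over 24669 probe sets served the other probe sets. The code was tested on simulated data. Where a group was dim, a fold is a lower bound in which each dim array takes its median or the gene's signal, whichever is higher. Precision is limited by 3 arrays a group.

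The members and gene lists were chosen with earlier results of these data known. The rule for names took all 10 genes, at most 3 called members of each pathway list per comparison over vehicle, and the 3 genes nearest to Dusp6, Spry4 and Etv5. Of 21 relay genes listed 15 were tested, and of the other lists 5 of 7 phosphatases, 7 of 8 inhibitors, 12 of 16 ETS factors, 10 of 10 induced genes and 8 of 10 receptors. Alternatives changed the normalization, filter, pseudocount, probe set, variance model, samples fitted and replicate block, and left out each array in turn; the mean of a gene's probe sets that passed the filter was added after seeing the data.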

Additional observations from a re-analysis of the deposited data

How the results depend on the processing

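Of 10 genes, the number called differed by over 1.5 times in 3 cases with all arrays kept: under DAPT 2 without the intensity trend, against 4, under TAE226 7 with arrays centred on their medians, against 4, and in U0126 over PP2 3 with the mean of all a gene's probe sets, against 7, where Spry4 was not tested. Leaving out each array in turn gave 2 to 4 genes for DAPT (2 without vehicle replicate 1 or 2 or DAPT replicate 1 or 2), 6 to 8 for U0126, 3 to 5 for TAE226 and 9 to 10 for PP2 over vehicle, 7 in every fit for U0126 over PP2, 4 to 6 for U0126 over TAE226, 9 to 10 for TAE226 over PP2, 6 to 7 for DAPT over U0126, 3 to 6 for DAPT over TAE226, 8 to 10 for DAPT over PP2 and 10 in every fit for the F-test. Under TAE226 the sign turned for Spred2 with the mean of all its probe sets (0.13) or of those that passed the filter (0.044), for Cbl with the mean of all its probe sets (−0.32) and for Gab1 with arrays centred on their medians (−0.062), and under DAPT for Dusp8 with the mean of all its probe sets (−0.027); the cause was not tested. With the replicate number as a block, 3 genes were called under DAPT, as the call of Etv5 ended (−0.44, adjusted p = 0.0604). The numbers did not pair the samples: over 30 pairs with the same number, deviations from group means correlated at −0.24 to 0.20, and 4 of 15 arrays correlated best with their own number. Dim probe sets limit Spry4 and Etv4 under PP2 to lower bounds.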

Other observations

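For each of the 10 genes, the closest gene by the 5 group means lay outside the set, which holds 10 of the 11412 genes tested. Dusp4 was no exception, and its closest genes lay outside the ERK lists. By the measure used for Dusp6, its nearest genes were Ifi35 (0.12 on the log2 scale), Ube2l6 (0.14) and Tmem140 (0.15), and its nearest among the 10 genes was Spry2 (0.41). Ifi35 and Ube2l6 are known as interferon-induced genes. Ifi35 had mean log2 signals of 11.96 under DAPT, 12.10 under U0126, 12.65 under TAE226, 11.77 under PP2 and 13.37 in vehicle. For Spry1 the nearest genes were Eda2r (0.06), Spa17 (0.09) and Il17rd (0.09), an inhibitor of FGF signalling. For Spred1 they were Nrg1 (0.05), an ERBB ligand, Cntn2 (0.08) and Dse (0.08), and for Dusp5 Eps8 (0.14), Errfi1 (0.14) and Acsl4 (0.14). These genes, apart from Spry2, were chosen after their values were seen, and the values are descriptions with no test.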
